A study of Homo sapiens with 30 samples.

Results

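RNA sequencing was used to compare Delta47 human multiple myeloma cells of a FOXM1 knockout clone that carried a FOXM1c vector with the same clone without the vector. The vector group (KO2R, 3 libraries) is knockout clone 2 after lentiviral transduction with the FOXM1c isoform and sorting for GFP. The untransduced group (KO2, 3 libraries) is the same clone with no vector. Beside them stand a second knockout clone (KO1, 3 libraries) and unedited Delta47 cells (WT, 3 libraries). In a second myeloma line, OPM2, knockout clone 1 with the FOXM1c vector (KO1R, 3 libraries) and with an empty vector (KO1EV, 3 libraries) was used for 1 comparison. All knockout cells were edited in exon 2 of FOXM1 with Cas9 and grown from single cells, and no time or dose is given in the labels. The 6 libraries of KO2R and KO2 are among 30 samples of the series. The genes were chosen by level alone: 10749 of the 17286 genes in the Delta47 table had a value of 1 or more in at least 3 of these 6 libraries. KO2 is 1 clone, and the Delta47 empty-vector group was not analysed here, so the FOXM1c insert, the transduction, the sort and the time in culture cannot be told apart. The labels do not say whether replicates are separate cultures, so the p-values measure only a spread between libraries that may be technical.

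FOXM1 is a forkhead transcription factor that is made in cycling cells and is recruited to late cell cycle genes with the MuvB complex and MYBL2. Its targets include the genes of mitotic entry, such as CCNB1, PLK1 and CDC25B, and the factor is known as a marker of poor outcome in myeloma. It has also been tied to glucose uptake and lactate production in several cancers. Multiple myeloma is a tumour of plasma cells, which are marked by SDC1, CD38 and TNFRSF17.

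For orientation, the promoters of 5 genes that were higher in KO2R are shown, because elements of 2 kinds described for mitotic and for hypoxia genes can be read in them. The sequences are RefSeq windows of GRCh38.p14, from 250 bases before to 50 after the transcription start, written 5′ to 3′ on the gene's strand. In CCNB1, which encodes cyclin B1, and PLK1, which encodes polo-like kinase 1, capitals mark matches on either strand to the core of the cell cycle homology region (TTTGAA, and likewise TTTAAA and also TTCGAA) and to the CCAAT box (CCAAT or ATTGG).
CCNB1, chr5:69166900-69167199, plus strand: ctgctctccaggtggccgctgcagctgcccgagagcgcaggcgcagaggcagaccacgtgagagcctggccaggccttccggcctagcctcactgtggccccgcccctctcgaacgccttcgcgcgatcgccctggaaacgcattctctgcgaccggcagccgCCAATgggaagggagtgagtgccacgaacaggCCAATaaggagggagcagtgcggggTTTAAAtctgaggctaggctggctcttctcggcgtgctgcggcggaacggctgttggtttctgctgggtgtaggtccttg
PLK1, chr16:23678639-23678938, plus strand: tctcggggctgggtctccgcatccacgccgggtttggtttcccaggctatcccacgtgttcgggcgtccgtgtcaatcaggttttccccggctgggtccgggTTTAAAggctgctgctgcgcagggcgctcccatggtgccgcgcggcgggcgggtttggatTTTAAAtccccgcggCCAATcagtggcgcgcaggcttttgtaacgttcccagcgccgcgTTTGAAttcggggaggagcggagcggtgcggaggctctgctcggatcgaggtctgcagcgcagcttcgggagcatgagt
In ANKRD37, DDIT4 and LDHA, capitals mark matches on either strand to the core of the hypoxia response element (ACGTG or CACGT).
ANKRD37, chr4:185396591-185396890, plus strand: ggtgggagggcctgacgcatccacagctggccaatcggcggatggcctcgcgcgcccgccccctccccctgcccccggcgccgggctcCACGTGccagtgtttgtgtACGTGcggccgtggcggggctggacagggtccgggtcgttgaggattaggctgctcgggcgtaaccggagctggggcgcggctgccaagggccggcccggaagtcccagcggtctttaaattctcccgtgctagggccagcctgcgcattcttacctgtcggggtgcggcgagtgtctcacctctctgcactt
DDIT4, chr10:72273674-72273973, plus strand: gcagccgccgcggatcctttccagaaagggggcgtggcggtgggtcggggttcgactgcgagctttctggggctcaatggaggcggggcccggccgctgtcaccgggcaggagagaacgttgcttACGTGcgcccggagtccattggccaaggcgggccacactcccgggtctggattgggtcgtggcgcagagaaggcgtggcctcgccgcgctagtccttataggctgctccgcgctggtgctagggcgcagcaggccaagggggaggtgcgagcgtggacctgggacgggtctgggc
LDHA, chr11:18394313-18394612, plus strand: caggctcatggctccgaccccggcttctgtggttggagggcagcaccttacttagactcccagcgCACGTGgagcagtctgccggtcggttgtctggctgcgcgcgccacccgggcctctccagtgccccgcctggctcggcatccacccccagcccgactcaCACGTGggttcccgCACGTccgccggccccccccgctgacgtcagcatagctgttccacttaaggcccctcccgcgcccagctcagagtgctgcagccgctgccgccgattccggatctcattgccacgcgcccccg
CCNB1 held 1 match to the cell cycle homology core and 2 to the CCAAT box, and PLK1 held 3 and 1. ANKRD37 held 3 matches to the hypoxia core, DDIT4 held 1 and LDHA held 5, where a palindrome (CACGTG) is counted on both strands. The elements were not particular to either class. CCNB1 and PLK1 each held 2 unmarked matches to the hypoxia core, ANKRD37 held 1 unmarked match to the cell cycle homology core and 1 to the CCAAT box, and DDIT4 held 2 to the CCAAT box. NEK2, a mitotic gene, held 0 matches to the cell cycle homology core, and the glucose transporter gene SLC2A1 held 0 to the hypoxia core. Among the 12515 windows of genes tested here, 17.9% held the cell cycle homology core, 35.3% the CCAAT box and 26.4% the hypoxia core. The forkhead letters TAAACA or TGTTTA were in 7.34% of these windows and in 0 of the 5 shown. Of the 20 genes at least 2-fold higher in KO2R, 14 had a window, and they had 22 windows in all. Of these 22 windows, 27.3% held the hypoxia core, 36.4% the CCAAT box, 27.3% the cell cycle homology core and 0 the forkhead letters, so that the first 2 shares were near those over the genes tested. A match is a description of letters and no evidence of binding.

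FOXM1 transcript was at 94.37, 102.44 and 101.29 of the authors' expression value in KO2R, against 47.11, 46.1 and 45.35 in KO2. The groups did not overlap, as for 66.3% of all genes tested, and FOXM1 rose by 1.09 ± 0.04 on the log2(value + 1) scale (SE, n = 3 each; adjusted p = 6.56e-12, limma). It stood at 46.09, 49.78 and 47.97 in KO1 and at 87.1, 88.81 and 90.85 in WT, so that KO2R lay 0.16 log2 above WT. The transcript is still present in the knockout clones, and the value does not tell the vector's transcript from the edited locus. In OPM2 the FOXM1 difference between KO1R and KO1EV was 1.37 (log2; adjusted p = 6.33e-08, limma).

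The plasma cell markers were present: all 8 listed were above 1 in every group, and their summed value ranged from 2148 to 2222 in KO2R and from 1976 to 1997 in KO2. The sum does not stand for every marker. Of the 8, 3 were called higher and 4 lower in KO2R (adjusted p under 0.05, limma), with a median log2 difference of −0.05. Over all genes, 25.7% were called higher and 37.4% lower. Of 7 myeloid markers in the table, 7 stayed under 1 in both groups. The T and NK cell list was carried by CD4 and KLRD1 and summed to 149.98 to 151.86 in KO2R, against 177.2 to 190.3 in KO2. The epithelial list (EPCAM, KRT8 and KRT18 above 1) summed to 12.4 to 13.1 in KO2R, against 9.77 to 11.4 in KO2. The stromal and endothelial list (PECAM1 above 1) summed to 13.6 to 15.2 in KO2R, against 14.4 to 16.3 in KO2. The part of these sums in the results was not tested. Column totals, which are not read counts, were 607461 to 633778 in KO2R, against 536159 to 542125 in KO2, and the depth of the libraries is unknown. No library stood apart: the SD of a library's log2 deviation from its group ranged from 0.1 to 0.133 over the 12 Delta47 libraries.

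Of the 10749 genes, 2763 were called higher (25.7%) and 4015 lower (37.4%) in KO2R, together 63.1%, at an adjusted p under 0.05 in a limma-trend fit over the 4 Delta47 groups. Most of these differences were small. Of the called genes, 92.0% differed by less than 1.5-fold, 20 genes were at least 2-fold higher (0.186%) and 6 at least 2-fold lower (0.0558%). The direction followed transcript length, with Spearman's rho of −0.553 across 10575 genes, which are not independent replicates. Transcripts under 700 nucleotides had a median log2 difference of 0.427, and 80.3% of them were called higher. Transcripts of 8000 nucleotides or more had a median of −0.372, and 73.5% were called lower. KO1 against WT, which shares no library with KO2R and KO2, had a rho of −0.404. With a smooth trend on length removed from each library, rho was 0.004, and 3007 genes (28.4%) were called higher and 3065 (29.0%) lower, together 57.4%. A gene is described below as higher or lower with and without the length trend where both fits called it, which was so for 1949 higher (18.4%) and 2562 lower genes (24.2%). Of these, 61 and 49 passed 1.5-fold in both fits. Scaling each library by its median ratio gave 3444 higher and 3383 lower genes, and quantile scaling gave 3360 and 3424, with the median of all genes shifted by 0.054 and 0.049 (log2).

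**Figure D1:**
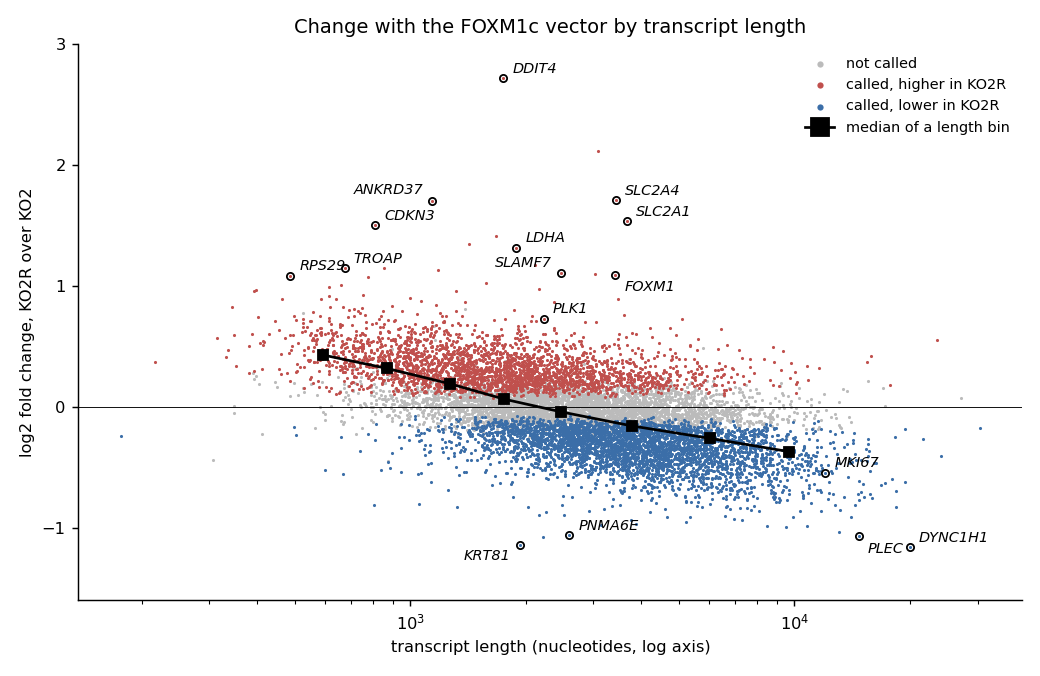
Log2 fold change of KO2R over KO2 (y axis) against transcript length in nucleotides (x axis, log scale) for each gene tested with a length, coloured by its call, with the median of 8 length bins as squares. The medians run from 0.427 in the shortest bin to −0.372 in the longest, and DDIT4, SLC2A4, SLC2A1 and FOXM1 lie far above the bin of their length.

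Of 64 genes of G2/M and mitosis, 22 were higher and 27 lower in KO2R, where 25.7% of all genes were called higher and 37.4% lower, and the median was −0.03 against −0.05 over all genes. With the length trend removed 26 were higher and 20 lower, where 28.4% and 29.0% of all genes were called, and the median was 0.03 against −0.002. These counts, and those of the lists that follow, are to be read against these shares over all genes. With and without the length trend, 20 mitotic genes were higher, and CDKN3 had the largest difference among them, followed by TROAP and CDC25B. CDKN3, a phosphatase that acts on cyclin-dependent kinases, was at 62.35, 57.43 and 58.58 in KO2R, against 18.51, 20.86 and 21.8 in KO2. Every KO2R library was above every KO2 library, and the log2 difference was 1.5 ± 0.06 (adjusted p = 6.91e-12), or 1.18 with the length trend removed. CDC25B, the phosphatase that activates CDK1 with cyclin B, was at 158.49, 152.11 and 154.67 in KO2R, against 72.67, 70.63 and 72.75 in KO2, a difference of 1.10 ± 0.04 (adjusted p = 2.48e-12). All 3 KO2R libraries were about equally high, and WT averaged 135. CCNB1 was at 125.06, 117.35 and 132.76 in KO2R and at 60.82, 65.67 and 62.52 in KO2, with no overlap (0.98 ± 0.05, adjusted p = 2.54e-10).

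PLK1 was at 150.96, 149.42 and 137.78 in KO2R, against 87.85, 86.77 and 88.67 in KO2 (0.73 ± 0.04, adjusted p = 6.69e-10), and remained below the WT mean of 172. NEK2, a kinase of centrosome separation, was at 20.2, 22.6 and 24.46 in KO2R, against 12.75, 12.36 and 12.21 in KO2 (0.80 ± 0.06, adjusted p = 1.67e-08). Neither pair of groups overlapped. The others on the higher side included TROAP, a spindle protein (1.14, and 0.76 with the length trend removed), and PTTG1, the securin that holds separase inactive (0.83). CDK1 differed by 0.51, CCNA2 by 0.50, CCNB2 by 0.44, MAD2L1 by 0.39, CENPA by 0.35 and BIRC5 by 0.27 (log2). CKS2 and CKS1B, small partners of the cyclin-dependent kinases, differed by 0.71 and 0.62, and by 0.30 and 0.31 with the length trend removed.

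A further 17 mitotic genes were lower with and without the length trend, and spindle and cytokinesis proteins were among them. INCENP, the scaffold of the chromosomal passenger complex, was at 16.68, 18.56 and 17.77 in KO2R, against 28.19, 25.87 and 25.39 in KO2 (−0.56 ± 0.05, adjusted p = 7.64e-08), and at −0.40 with the length trend removed. The groups did not overlap. SPAG5 (−0.47), TACC3 (−0.44) and PRC1 (−0.37), which act on the spindle or its midzone, were also lower. MKI67, the proliferation marker Ki-67, was at −0.55, and at −0.15 with the length trend removed. The 17 lower genes had a median transcript length of 3497 nucleotides and the 20 higher genes one of 1844 nucleotides. AURKA was at −0.11, and CDC20 (−0.03, adjusted p = 0.454) and UBE2C (−0.09, adjusted p = 0.209) were not called without the removal, but both were called lower with it (−0.11 and −0.46); CDC20 differs in direction with the median ratio scaling. CENPF (−0.40) and TOP2A (−0.30) were called, but not with the length trend removed (−0.04 and −0.05). AURKB was likewise called only with the trend left in (0.28, and 0.04 without it).

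Of the 22 mitotic genes higher in KO2R than KO2, 12 were lower in KO1 than WT and 9 were higher there. Of the 27 lower in KO2R, 14 were also lower in KO1 and 0 were higher. Over all genes, 298 of the 2763 higher in KO2R were lower in KO1 than WT and 1439 were higher there. Of the 4015 lower in KO2R, 1618 were also lower in KO1 and 628 were higher. Counts of this kind for later lists are to be read against these. Of 13 genes of the MuvB, MYBL2 and DREAM complexes, the known partners of FOXM1 at such promoters, 5 were higher and 3 lower, FOXM1 itself included, and 6 and 2 with the length trend removed. MYBL2 was at 328.12, 334.29 and 327.67 in KO2R, against 416.39, 426.58 and 405.73 in KO2, lower in all 3 libraries (−0.33 ± 0.03, adjusted p = 3.23e-07). Of 44 genes of G1/S and replication, 12 were higher and 22 lower, against 12 and 17 with the length trend removed. RFC5 (0.19, called higher) has no known transcript length and is in the first counts only. GINS2 (0.61) and RFC4 (0.48) were higher, CHAF1A (−0.47) and POLD1 (−0.44) lower, and E2F1 was at −0.11 (adjusted p = 0.0821). Of 19 genes of homologous recombination, 3 were higher and 4 lower, against 4 and 3 with the length trend removed. Among them were RBBP8 (0.22), XRCC2 (−0.36) and BRCA1 (−0.39, and −0.14 with the length trend removed).

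**Figure D2:**
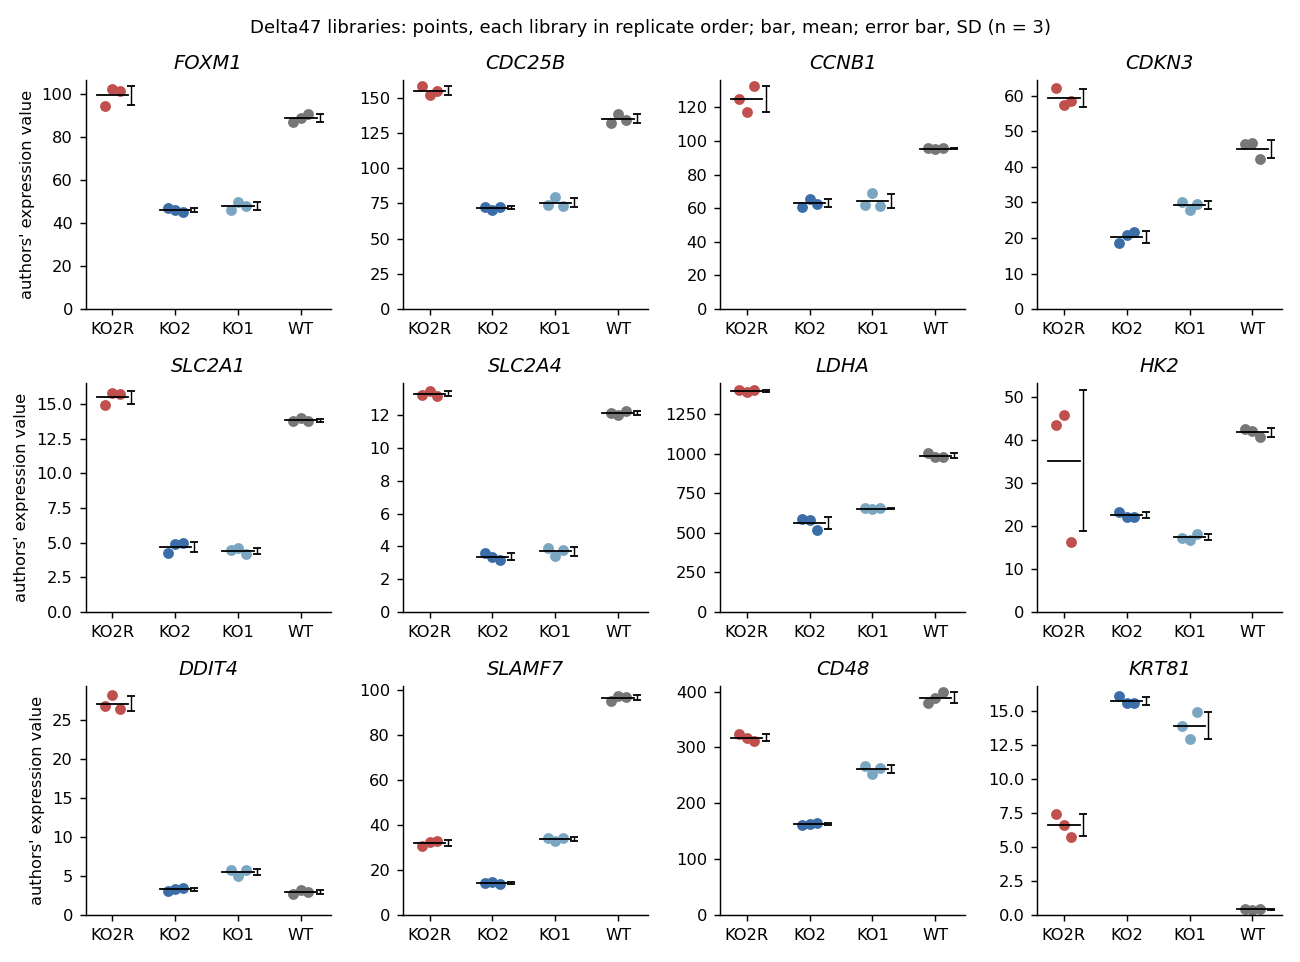
The authors' expression value (y axis, from 0) of 12 genes in each Delta47 library of KO2R, KO2, KO1 and WT, with the mean as a bar and the SD (n = 3) beside it. The 3 KO2R points lie together and apart from KO2 in all panels but HK2, where replicate 3 is at 16.25 and the other two are at 43.38 and 45.76.

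The glucose transporter SLC2A1 and the lactate gene LDHA were among the 20 genes past 2-fold, and the enzymes of the steps between them lay between −0.33 and 0.49 (log2), where the upper value is that of HK2 and was 0.96 without 1 library. SLC2A1, the basal glucose transporter GLUT1, was at 14.92, 15.8 and 15.7 in KO2R, against 4.28, 4.87 and 4.95 in KO2. Each KO2R library was above each KO2 library, and the difference was 1.53 ± 0.06 (adjusted p = 6.91e-12), and 1.68 with the length trend removed. KO1 averaged 4.42 and WT 13.8. LDHA, which encodes the lactate dehydrogenase subunit that makes lactate, was at 1401.6, 1390.92 and 1402.9 in KO2R, against 588.36, 578.96 and 518.09 in KO2 (1.32 ± 0.04, adjusted p = 1.15e-12). All KO2R values were also above the WT mean of 988.

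SLC2A4, the insulin-responsive transporter GLUT4, was at 13.24, 13.47 and 13.19 in KO2R, against 3.59, 3.37 and 3.17 in KO2 (1.71 ± 0.06, adjusted p = 2.48e-12). KO1 averaged 3.7 and WT 12.1. The ratio of the SLC2A4 value to the SLC2A1 value was 0.887, 0.853 and 0.84 in the KO2R libraries, 0.839, 0.692 and 0.64 in KO2, and 0.858 to 0.886 in WT. In the 15 OPM2 libraries, SLC2A4 had at most 0.13 FPKM where SLC2A1 had 9.7 to 20.16 FPKM. The source of the SLC2A4 values in Delta47 was not tested.

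HK2, the hexokinase that traps glucose in the cell, was at 43.38, 45.76 and 16.25 in KO2R, against 23.29, 22.13 and 22.05 in KO2. Replicates 1 and 2 of KO2R were above every KO2 library and replicate 3 was below every one, so the groups overlapped. The difference of 0.49 ± 0.24 was not called (adjusted p = 0.0803); it was called with the length trend removed (0.74), and without KO2R replicate 3 it was 0.96 ± 0.05 (adjusted p = 4.23e-10). KO1 averaged 17.4 and WT 41.8, and in OPM2 the HK2 difference of KO1R over KO1EV was 1.00 log2 (adjusted p = 4e-05, limma). A screen of 8408 genes, chosen by mean level, for a library more than 1 log2 unit from 2 replicates that lay within 0.25 of each other found HK2 in KO2R replicate 3 and no other gene in any of the 12 libraries.

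Of 22 tested genes of glucose uptake, glycolysis and lactate, 8 were higher and 7 lower, with a median of 0.05; with the length trend removed the counts were 9 and 6 and the median −0.02. PFKFB4, which makes the activator of phosphofructokinase, was at 3.52, 4.17 and 4.16 in KO2R, against 1.37, 1.46 and 1.46 in KO2, with no overlap (1.02 ± 0.08, adjusted p = 9.18e-09). ALDOC (0.49), PGK1 (0.45) and PGAM1 (0.29) were higher with and without the length trend. ALDOA (−0.01, adjusted p = 0.868) and ENO1 (0.04, adjusted p = 0.322) were not called. PFKL (−0.33), the liver-type phosphofructokinase, and SLC16A3 (−0.40), a lactate exporter, were lower. Of the 8 higher genes, 2 were lower in KO1 than WT (SLC2A1 and LDHA), and 5 were higher there.

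Of 20 tested hypoxia response genes, 11 were higher and 3 lower, with a median of 0.22 against −0.05 over all genes. With the length trend removed, 12 were higher and 2 lower, with the same median. Of the 11 higher genes, 6 were also higher in KO1 than WT, and 3 were lower there. Over all 2763 genes higher in KO2R, these counts were 1439 and 298. DDIT4, an inhibitor of the growth kinase mTORC1, had the largest rise of all genes called. It was at 26.79, 28.1 and 26.31 in KO2R, against 3.09, 3.26 and 3.47 in KO2 (2.72 ± 0.06, adjusted p = 5.37e-14), while KO1 averaged 5.5 and WT 2.94. All 3 KO2R libraries thus stood above every other Delta47 library analysed here. ANKRD37, a small ankyrin-repeat protein known as a hypoxia target, was at 9.47, 11.63 and 9.49 in KO2R, against 2.15, 2.81 and 2.38 in KO2 (1.70 ± 0.10, adjusted p = 7.79e-10), while WT averaged 3.02. BHLHE40, a repressor of the clock and of lipid genes, was at 37.02, 35.39 and 35.97 in KO2R, against 19.72, 18.87 and 18.54 in KO2 (0.89 ± 0.05, adjusted p = 2.88e-10). In none of the 3 genes did the groups overlap.

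BNIP3L, a mitophagy receptor, was 0.76 higher (log2), P4HA1, a collagen prolyl hydroxylase, 0.70, FAM162A 0.70, PDK1, which holds pyruvate back from mitochondria, 0.52, and STC2 0.51. NDRG1 (−0.35) and KDM4B (−0.41) were lower, VEGFA was called only with the length trend left in (0.31, and 0.07 without it), and HIF1A itself was at −0.09 (adjusted p = 0.0818). HILPDA, a lipid droplet protein chosen after its values were seen, was at 21.3, 23.01 and 22.49 in KO2R, against 11.62, 11.67 and 11.82 in KO2 (0.87 ± 0.05, adjusted p = 3.65e-10). TXNIP, an inhibitor of glucose uptake also chosen afterwards, was at 20.76, 21.91 and 22.29 in KO2R, against 13.03, 12.01 and 12.4 in KO2 (0.75 ± 0.05, adjusted p = 4.16e-09). Neither gene's groups overlapped. In OPM2, 0 of 17 tested hypoxia genes were called between KO1R and KO1EV by limma with or without the trend, where 8.19% of all genes were called, and 3 had an unadjusted p under 0.05. DDIT4 was at 0.67 there (adjusted p = 0.314, limma) and ANKRD37 at −0.22 (adjusted p = 0.461, limma). The difference between the lines was not tested.

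SLAMF7, a lymphoid surface receptor of the SLAM family and the target of an antibody used in myeloma, was at 30.52, 32.47 and 33.05 in KO2R, against 14.26, 14.66 and 13.96 in KO2 (1.11 ± 0.04, adjusted p = 4.49e-12). The groups did not overlap, while KO1 averaged 33.7 and WT was far higher, at 96.6. CD48, another receptor of that family, chosen after its values were seen, was at 323.65, 316.5 and 311.71 in KO2R, against 161.04, 162.64 and 165.11 in KO2 (0.96 ± 0.03, adjusted p = 2.48e-12), while WT averaged 389. LY9, chosen in the same way, differed by 0.23, and the family was not counted as a list. Of 20 tested plasma cell and myeloma genes 6 were higher and 9 lower, with a median of −0.09, and 6 and 7 with the length trend removed. JCHAIN, the chain that joins polymeric antibody, was at 2389.43, 2363.69 and 2421.49 in KO2R, against 1486.89, 1481.78 and 1510.1 in KO2 (0.68 ± 0.03, adjusted p = 1.12e-10), with no overlap. TNFRSF17, which encodes BCMA, was 0.40 higher, and 0.15 with the length trend removed.

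The plasma cell regulator XBP1 was 0.26 higher, whereas PRDM1 (−0.47) and CCND2 (−0.52) were lower. IRF4 was at −0.18 and at 0.05 with the length trend removed, so its direction depends on that step. SDC1 was at 0.08 (adjusted p = 0.0601), was called higher with the length trend removed (0.19, adjusted p = 0.000206) and reversed with quantile scaling (−0.16). MCL1, a survival factor of plasma cells, was at −0.22 and at −0.07 with the length trend removed. Of 13 BCL2 family genes, 4 were higher and 4 lower, but 5 lower with the length trend removed. PMAIP1 was at 0.52, and BAX at −0.17, or at −0.64 with the length trend removed (adjusted p = 6.76e-09). CDKN1A, an inhibitor of cyclin-dependent kinases, did not differ measurably (0.00 ± 0.06, adjusted p = 0.987).

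Ribosomal protein genes and the list of MYC and ribosome biogenesis genes differed in direction. All but 2 of 45 cytosolic ribosomal protein genes were higher, 43 in all, with a median of 0.52, and 0 were lower, with or without limma's trend and also at an unadjusted p under 0.05. With the length trend removed 36 were higher and 1 lower, with a median of 0.26; with quantile scaling 25 were higher and 7 lower. RPS18 was at 4321.29, 4207.54 and 4168.43 in KO2R, against 2279.7, 2225.77 and 2213.52 in KO2 (0.92 ± 0.03, adjusted p = 2.48e-12), and at 0.51 with the length trend removed. The groups did not overlap. Of the 43 higher ribosomal protein genes, 25 were also higher in KO1 than WT, and 3 were lower there. Over all genes, 1439 and 298 of the 2763 higher in KO2R were so. Ribosomal protein genes have many processed pseudogenes, with which reads can be shared. In contrast, of 39 MYC and ribosome biogenesis genes, 5 were higher and 24 lower, with a median of −0.20. With the length trend removed, the counts were 7 and 23 and the median −0.16. POLR1A, the large subunit of RNA polymerase I, was at 5.71, 6.22 and 6.54 in KO2R, against 11.81, 11.3 and 11.56 in KO2 (−0.81 ± 0.05, adjusted p = 2.71e-09), and at −0.41 with the length trend removed. RRP12 (−0.70), CAD (−0.70) and TCOF1 (−0.66) were also lower. MYC was at −0.01 (adjusted p = 0.745).

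Cytosolic chaperones were lower in 16 of 27 cases and higher in 5, with a median of −0.15, and in 14 and 4 with the length trend removed. HSPA1B, an inducible HSP70 gene, was at 30.74, 27.34 and 31.77 in KO2R, against 55.28, 57.92 and 56.2 in KO2 (−0.90 ± 0.05, adjusted p = 3.65e-10), with no overlap. Its near-identical neighbour HSPA1A was at −0.81, and reads of the pair may be shared. DNAJA1 (−0.39), BAG3 (−0.38) and HSP90AA1 (−0.34) were lower. Chaperones of the endoplasmic reticulum and XBP1 targets had 9 higher and 15 lower of 33, and 10 and 11 with the length trend removed, with HSPA5 at −0.42, HYOU1 at −0.43 and HERPUD1 at 0.51. The amino acid response had 10 higher and 10 lower of 29, and 13 and 7 with the length trend removed. There CHAC1, a glutathione-degrading enzyme, was at 31.87, 30.7 and 28.76 in KO2R, against 18.53, 14.82 and 16.08 in KO2 (0.85 ± 0.07, adjusted p = 1.79e-08), while SLC7A5 (−0.32), SLC1A5 (−0.44) and GARS (−0.27) were lower. CHAC1 has no known transcript length, so it has no value with the length trend removed and is not among the 13.

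Mitochondrial genes were higher: 32 of 38 subunits of oxidative phosphorylation, with 2 lower and a median of 0.38, and 24 and 5 with the length trend removed, with a median of 0.16. NDUFA4 was at 157.33, 152.14 and 162.04 in KO2R, against 97.21, 89.3 and 100.42 in KO2 (0.71 ± 0.04, adjusted p = 1.98e-09), with no overlap and the same value with the length trend removed. These transcripts are short, with a median length of 1130.75 nucleotides against 2716 over all genes, and 27 of the 32 were higher in KO1 than WT too. Proteasome subunits had 18 higher and 8 lower of 31, and 10 each way with the length trend removed. The list of replication-dependent histones had 13 higher and 0 lower of 19, with 0 lower also at an unadjusted p under 0.05 and in limma without the trend. It also holds H1F0 (0.46, called higher), which is not replication-dependent. With the length trend removed, 6 were higher and 2 lower, and the median was 0.02 against 0.40. The libraries were made from poly-A RNA, so the values cover only histone transcripts with a poly-A tail. In OPM2, 12 of 16 histone genes tested were higher in KO1R than KO1EV (background 3.12%) and 0 lower. HIST1H2AC was at 0.72 in Delta47 (0.64 with the length trend removed) and at 1.61 in OPM2. HIST2H2AA3 was at 0.59 in Delta47 (0.15 with the length trend removed) and at 2.13 in OPM2, and it has the same values as HIST2H2AA4, so the pair shares reads. HIST2H4A and HIST2H4B also had the same difference in Delta47 (0.655 ± 0.131). Both members of each pair are counted in the 13.

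Immune genes gave small counts. MHC class I presentation had 6 higher and 3 lower of 13, and 5 and 1 with the length trend removed. ERAP2 (0.16, called higher) and TAPBP (−0.22, called lower) have no known transcript length and are in the first counts only. The immunoproteasome subunits PSMB8 (0.75) and PSMB9 (0.51) and B2M (0.57) were higher and TAP2 (−0.36) was lower. With the length trend removed they were at 0.57, 0.18, 0.30 and −0.11. Only 2 of the class II genes passed the level filter, and HLA-DQB1 was at 3.5, 4.27 and 3.93 in KO2R, against 2.68, 2.28 and 1.87 in KO2 (0.58 ± 0.09, adjusted p = 4.59e-05). Of 20 interferon-stimulated genes, 6 were higher and 8 lower, against 5 and 7 with the length trend removed. IFITM1 was at 2, 3.42 and 2.07 in KO2R, against 0.42, 0.67 and 0.59 in KO2. It passed the level filter through the KO2R libraries alone, so it had to differ and its rise is given as values only. IFITM1 is still in the list counts and among the 20 genes at least 2-fold higher, including their promoter windows. In all, 29 of the genes tested passed through KO2R alone, of which 24 were called higher. A further 54 passed through KO2 alone, of which 52 were called lower. IFITM2, a close relative of IFITM1, was at 1.01 (0.62 with the length trend removed), while MX1 was at −0.49. NF-kB targets had 1 higher and 7 lower of 15, but 3 and 4 with the length trend removed, and 3 were lower in both. The 1 gene higher in both was the chemokine CCL3, at 19.41, 24.74 and 21.5 in KO2R, against 10.29, 9.38 and 9.75 in KO2 (1.08 ± 0.08, adjusted p = 5.41e-09). Cholesterol synthesis had 9 higher and 11 lower of 24, and 9 and 10 with the length trend removed, with INSIG1 at 0.58, FDFT1 at 0.41 and LSS at −0.52. Of 17 adhesion genes, 4 were higher and 8 lower, but 4 and 5 with the length trend removed. ITGB5 was at −0.80 and ITGA6 at −0.48, and at −0.61 and −0.25 with the length trend removed.

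**Figure D3:**
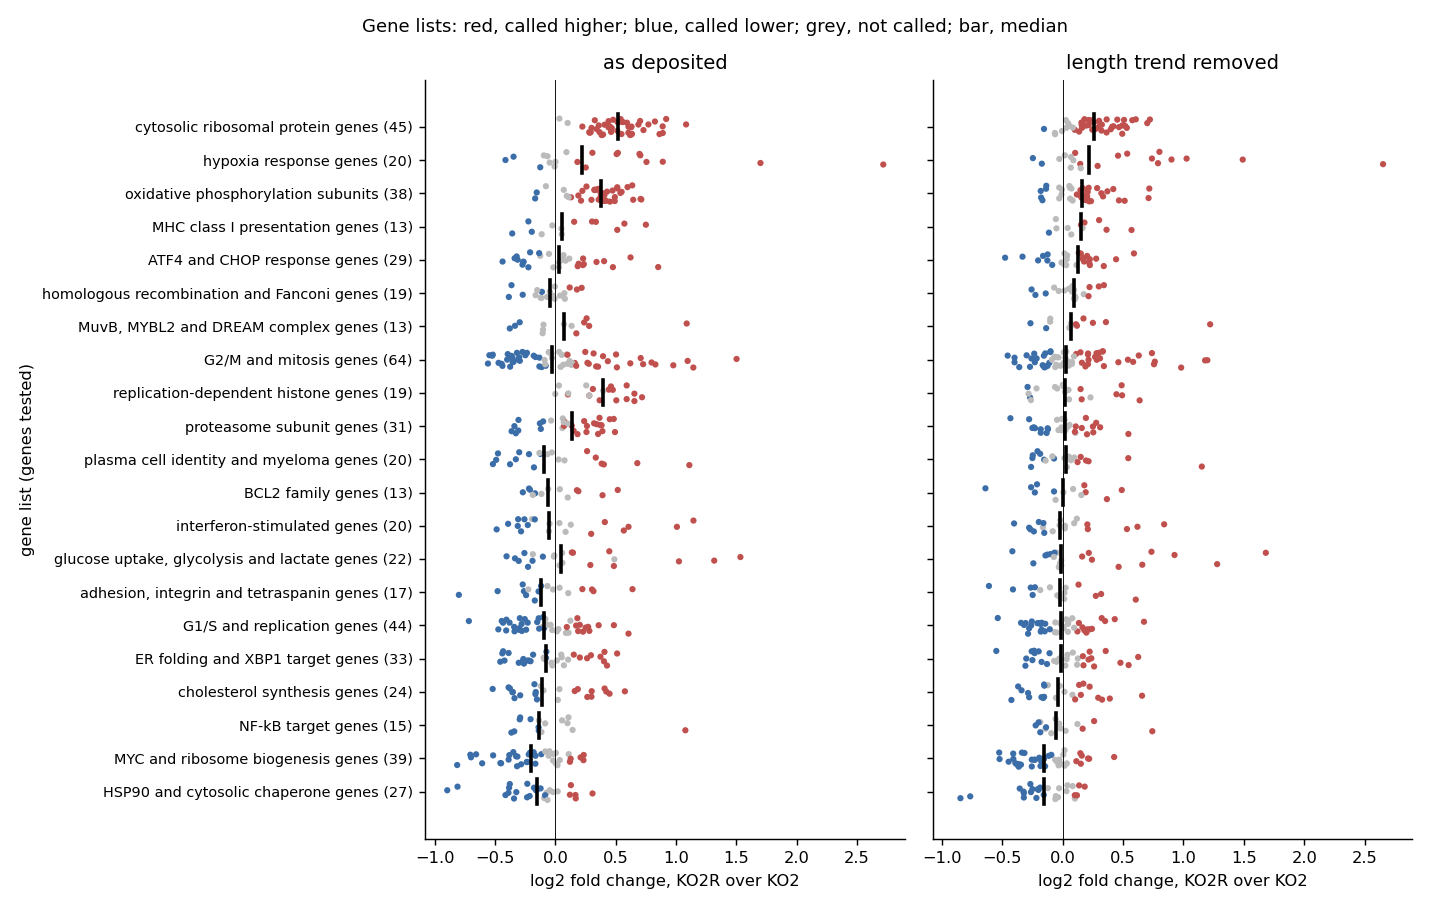
Log2 fold change of KO2R over KO2 (x axis) for the members of the gene lists shown, each with at least 5 genes tested (y axis, number tested in brackets), as deposited on the left and with the length trend removed on the right, with the median as a bar. Ribosomal protein, oxidative phosphorylation and histone medians of 0.52, 0.38 and 0.40 on the left are 0.26, 0.16 and 0.02 on the right, while the hypoxia median is 0.22 in both.

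The falls past 2-fold with a mean of at least 5 were fewer and in part in long transcripts. DYNC1H1, the heavy chain of cytoplasmic dynein, with a transcript of 20003 nucleotides, was at 11.6, 13.52 and 15.16 in KO2R, against 32.84, 30.08 and 30.5 in KO2 (−1.16 ± 0.07, adjusted p = 1.71e-09), and at −0.67 with the length trend removed. PLEC, a linker of the cytoskeleton, was at −1.07, and at −0.64 with the length trend removed. PNMA6E and KRT81 kept the size of their fall. PNMA6E was at 45.24, 44.6 and 45.07 in KO2R, against 98.53, 97.36 and 89.53 in KO2 (−1.06 ± 0.04, adjusted p = 1.81e-11), and at −1.01 with the length trend removed. KRT81, a hair keratin, was at 7.4, 6.64 and 5.77 in KO2R, against 16.1, 15.58 and 15.62 in KO2 (−1.15 ± 0.07, adjusted p = 2.38e-09), and at −1.18. Groups overlapped in none of these. KRT86, a near-identical relative, was at −1.08, and the pair may share reads. HIPK2, NBPF14, FLNA, HNRNPUL2, RRBP1, CHD3 and RAPGEF2 were at −0.93 or lower, and between −0.78 and −0.61 with the length trend removed. NBPF14 and NBPF10 (−1.04) belong to a multicopy family and are uncertain.

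Among the remaining rises, ITM2A, a membrane protein of lymphoid cells, was at 15.34, 15.36 and 14.72 in KO2R, against 5.24, 4.97 and 5 in KO2 (1.41 ± 0.08, adjusted p = 5.54e-10). KO1 averaged 1.19 and WT 9.44. DMKN was at 29.95, 29.58 and 25.35 in KO2R, against 12.86, 12.4 and 11.89 in KO2 (1.13 ± 0.09, adjusted p = 1.37e-08), where WT averaged 1.7. Neither gene's groups overlapped. EIF3CL, at 25.72, 7.8 and 3.95 in KO2R against 0, 5.97 and 1.04 in KO2 (2.12 ± 0.70, adjusted p = 0.0141), scattered between replicates. It shares near-identical sequence with EIF3C (−0.48), SERF1A (1.35) is a copied gene and GPR75-ASB3 (1.17) a readthrough, so these 3 rises are uncertain.

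KO1 against WT shares no library with KO2R against KO2, and was used to ask which changes of the knockout go the other way with the vector. Of the 5642 genes called there (52.5%), 926 were called in the opposite direction in KO2R against KO2, which is 16.4% of the KO1 calls and 13.7% of the KO2R calls. Of these, 298 were lower in KO1 and higher in KO2R, and 628 the reverse. In the same direction were 3057, which is 54.2% and 45.1% of the 2 lists, and both comparisons carry the length trend. With it removed, 1009 were opposite and 2184 in the same direction. The opposite ones were then 19.3% of the KO1 falls and 20.8% of the KO1 rises, where 28.4% and 29.0% of all genes were higher and lower. Strong KO1 changes were taken from the fit with the length trend left in, among genes with a mean of at least 5 in KO2R or KO2. Their KO2R calls had to hold with and without the length trend. Of 28 genes called at least 2-fold lower in KO1 than WT, 11 were higher in KO2R than KO2 (39.3%) and 6 lower (21.4%). Of 40 at least 2-fold higher in KO1, 7 were lower in KO2R (17.5%) and 11 higher (27.5%). Over all genes with a length, whatever their mean, 18.4% were higher and 24.2% lower in KO2R in both fits.

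The genes that turned round differed in how far they came. The share of the gap between KO2 and WT that KO2R covered (log2 scale, a description, since KO2 is in both) was 117% for FOXM1, 108% for SLC2A4, 111% for SLC2A1 and 122% for CDC25B. CDKN3 (135%), LDHA (161%), CCNB1 (165%) and ITM2A (181%) went further past WT. PLK1 covered 75.4%, CD48 76.6%, JCHAIN 72.8%, CCL3 52.1%, MT1A 49.9% and SLAMF7 41.5%. MT1A, a metallothionein, was at 14.85, 12.42 and 8.48 in KO2R, against 5.67, 6.93 and 4.11 in KO2 (0.97 ± 0.15, adjusted p = 3.21e-05). Its relative MT2A covered 15.3%, and the tetraspanin TSPAN7 17.6%, at 1.74, 2.12 and 2.5 in the KO2R libraries, against 1.01, 0.94 and 1.03 in KO2 and a mean of 23.8 in WT. DDIT4 and ANKRD37 have no such gap, since KO2 was near WT in both.

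Among the genes higher in KO1 than WT and lower in KO2R than KO2, KRT81 covered 32.0% of its gap and KRT86 28.8%, with WT means of 0.4 and 0.347. ROBO1, a guidance receptor, was at 5.64, 6.56 and 7.03 in KO2R, against 12.45, 11.35 and 11.43 in KO2 (−0.79 ± 0.07, adjusted p = 1.14e-07), with no overlap, and covered 21.6% of its gap to a WT mean of 0.0233. CHST15 (−0.68) covered 64.7% and CEP128 (−0.62) 87.3%. AEBP1 was at 7.01, 7.56 and 6.88 in KO2R, against 12, 11.77 and 11.85 in KO2 (−0.66 ± 0.05, adjusted p = 1.2e-08), and the KO1 mean of 24 stood against 8.3 in WT. KO2R thus lay below WT in AEBP1 (−0.19, adjusted p = 0.0026).

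**Figure D4:**
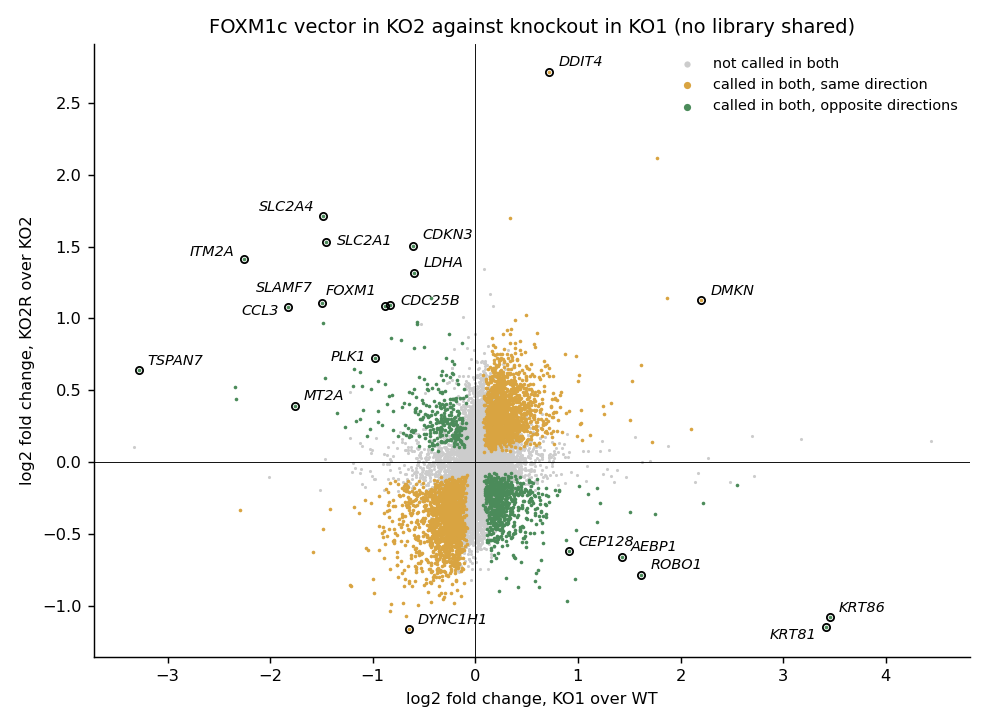
Log2 fold change of KO2R over KO2 (y axis) against that of KO1 over WT (x axis) for the genes tested, coloured by whether both comparisons called the gene and in which directions. SLC2A4, SLC2A1, ITM2A, SLAMF7 and FOXM1 lie at the upper left, KRT81, KRT86 and ROBO1 at the lower right, and DDIT4 at the top with a KO1 difference of 0.72.

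OPM2 gives a second cell line, in which the vector clone was set against an empty vector and 820 of 10015 genes were called (8.19%). Of the 657 OPM2 calls that were also tested in Delta47, 284 were called in the same direction in KO2R against KO2 (43.2% of the OPM2 calls and 4.71% of the 6036 Delta47 calls tested in both) and 163 in the opposite direction (24.8%). By direction, 34.9% of the OPM2 rises were higher in KO2R, where 25.7% of all genes were, and 48.0% of the OPM2 falls were lower, where 37.4% of all genes were. With the length trend removed, 248 had the same direction (39.4%). The 284 depend on the libraries: leaving out 1 library gave 125 to 285, with 125 without OPM2 KO1R replicate 1, 145 without KO1R replicate 2, 155 without KO1EV replicate 3 and 169 without KO1EV replicate 1. Raised in both lines were 83 genes, among them FOXM1, CDKN3 (OPM2 1.05), SLC2A1 (0.84), LDHA (0.83), CDC25B (1.02) and CCNB1 (1.13). By the fixed list they also held PLK1 (0.92), NEK2 (0.93), CCNB2 (0.59) and CENPA (0.53). PTTG1 (0.27), named through the mitosis list, was among the 83 too. The histone genes HIST1H2AC and HIST2H2AA3, given above, were also among them. Of the 64 mitotic genes, 12 were higher and 0 lower in OPM2 (background 3.12% and 5.07%), and 2 were lower at an unadjusted p under 0.05; limma without the trend also called 0 lower.

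Lower in both lines were PNMA5, JAG2, RAB15, BCR, RHOB and NBPF14. PNMA5 was at 204.96, 209.52 and 217.97 in KO2R, against 380.46, 385.41 and 372.26 in KO2 (−0.84 ± 0.03, adjusted p = 6.91e-12), and its OPM2 difference was −1.91. JAG2, a Notch ligand, was at 12.44, 11.81 and 13.34 in KO2R, against 20.22, 19.67 and 19.79 in KO2 (−0.63 ± 0.05, adjusted p = 1.12e-08), and its OPM2 difference was −1.09. In neither gene did the Delta47 groups overlap. RAB15 was at −0.82 and −0.60, BCR at −0.64 and −0.57, and RHOB at −0.55 and −0.54 in Delta47 and OPM2.

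**Figure D5:**
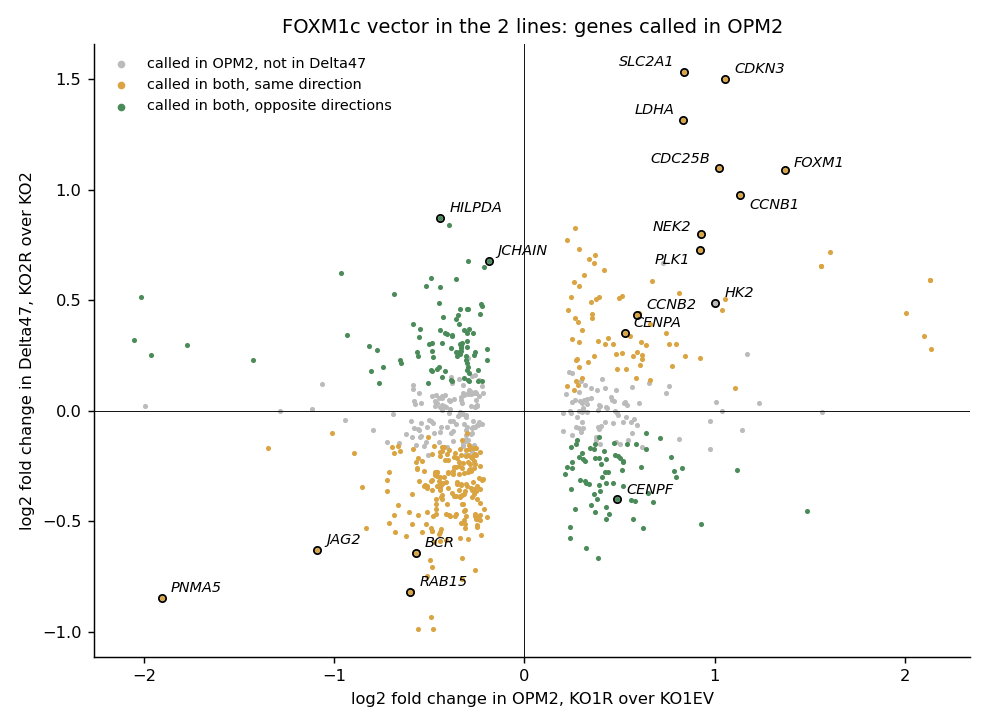
Log2 fold change of KO2R over KO2 in Delta47 (y axis) against that of KO1R over KO1EV in OPM2 (x axis) for the genes called in OPM2 and tested in both lines. FOXM1, SLC2A1, CDKN3, LDHA, CDC25B and CCNB1 lie at the upper right and PNMA5 at the lower left, and HK2 (Delta47 0.49) is called in OPM2 but not in Delta47.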

How the data were processed

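Poly-A RNA was read as paired ends of 100 bases on the DNBseq platform, per the labels' protocols, and the genome build is hg19, per the submitters' processing notes. Which aligner and which counter were used is not given in the sources used here. The authors deposited FPKM for OPM2; the Delta47 table names no unit, and its deposited values were used as a signal, called the authors' expression value. Counts were not used, so depth is unknown.

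Columns were matched by name to samples (27 of 30 samples), and 3 Delta47 columns that matched no sample were not used. The KO2R columns carry the letter R without the clone number, and only these Delta47 samples carry it. Date-like symbols (24 in Delta47, 23 in OPM2) were restored to gene symbols, and log2(value + 1) was analysed. Genes at 1 or more in at least 3 of the 6 libraries compared were tested with limma-trend (limma 3.58.1, R 4.3.3), all groups of a line in 1 fit, two-sided, with Benjamini-Hochberg adjustment over all genes tested. All adjusted p-values in the text are from this fit, and a gene was called under 0.05. Fold changes on this scale understate the change of low genes. The length trend was removed per library with a loess (span 0.5) of deviation on log10 GENCODE v29 transcript length, known for 98.4% of genes. Promoters are from RefSeq (GRCh38.p14), with 132 of 175 named genes matched.

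In data simulated from these libraries for KO2R against KO2, 100% of genes changed by 1.5, 2 and 4 times were recovered among 10749, with 13 false calls. The changed genes were drawn from those above a set mean level. The others had normal noise with no group difference and no length trend. The simulation therefore does not cover low genes or calls that follow the length trend. The members, lists and the rule for named genes were chosen with earlier results of these data known. The rule names FOXM1, the 12 strongest rises and falls with a mean of at least 5 called with and without the length trend, up to 4 members per list by adjusted p, 6 genes each way for KO1 and for OPM2, and 30 fixed genes. List members beyond these were added after their values were seen. The results of a few listed genes and of 2 lists are not reported here.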

Additional observations from a re-analysis of the deposited data

Results flagged for a closer look

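Of 156 named genes tested in both lines, 23 moved one way in every library of Delta47 KO2R against KO2 and the other way in every library of OPM2 KO1R against KO1EV, and 4 of these were called in both lines. CENPF, a kinetochore protein with a long transcript, was at −0.40 in Delta47 and 0.49 in OPM2 (log2). JCHAIN was at 0.68 in Delta47 and −0.19 in OPM2. BCL2L11, the pro-apoptotic BIM, was at −0.21 in Delta47 and 0.29 in OPM2, and HILPDA was at 0.87 in Delta47 and −0.44 in OPM2. In OPM2 their adjusted p-values (limma) were 0.047 for CENPF, 0.0372 for JCHAIN, 0.0238 for BCL2L11 and 0.0106 for HILPDA. The other 19 were not called in OPM2. Of these, genes of the endoplasmic reticulum were lower in Delta47, with SEC61A1 at −0.46 (OPM2 0.59), HSPA5 at −0.42 (OPM2 0.12) and HYOU1 at −0.43 (OPM2 0.26). The amino acid genes SLC1A5 (−0.44, OPM2 0.54), SLC7A5 (−0.32, OPM2 0.42) and GARS (−0.27, OPM2 0.35) had the same signs, as had MCL1 (−0.22, OPM2 0.15), DYRK1A (−0.38, OPM2 0.18), CYLD (−0.34, OPM2 0.35) and BTG2 (−0.35, OPM2 0.41). The respiratory chain genes COX7B (0.71, OPM2 −0.16), NDUFA4 (0.71, OPM2 −0.14) and COX6A1 (0.64, OPM2 −0.12) were higher in Delta47. So were FAM162A (0.70, OPM2 −0.23), PDK1 (0.52, OPM2 −0.27), PGAM1 (0.29, OPM2 −0.10), GAPDH (0.15, OPM2 −0.10), E2F5 (0.24, OPM2 −0.49) and RBBP8 (0.22, OPM2 −0.10). The difference between the lines was not tested for any of the 23. In Delta47 alone, the groups did not overlap for 66.3% of all genes tested. The count across both lines was not made over all genes, so the 23 have no background share. CENPF, BCL2L11 and GAPDH were no longer called in Delta47 with the length trend removed, and GAPDH was then at −0.01. The Delta47 comparison has no empty vector and OPM2 has one, so line and control cannot be told apart.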

How the results depend on the processing

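The number of genes called was within 1.5 times of 6778 in every alternative run, and FOXM1 lay between 1.07 and 1.22 (log2). The count past 2-fold (26) was 59 with a pseudocount of 0.1, with 31 higher and 28 lower, and 10 were lower with 0.5. Leaving out each library gave 6190 to 6860 called genes, 2492 to 2811 higher and 3698 to 4049 lower, 23 to 30 past 2-fold, with 18 to 22 higher and 5 to 10 lower (10 without KO2R replicate 2), FOXM1 at 1.066 to 1.124, 792 to 907 opposite to KO1, and 125 to 285 shared with OPM2. Fitting the compared groups alone, 493 genes were shared with OPM2. The cause of these shifts was not tested.

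Of 174 named genes beside FOXM1, 149 kept direction and call in every alternative, 12 lost a call in at least 1, 4 gained one and 9 changed direction in at least 1, some of these with a change of call. Direction changed with the length trend removed for MYC (0.016), IRF4 (0.052), BCL2L11 (0.006), HIF1A (0.069) and GAPDH (−0.012), and with the replicate block added to it at the same values. It changed with median ratio scaling for CDC20 (0.019), MYC (0.040), CDKN1A (0.053) and HLA-DOB (0.015), and with quantile scaling for SDC1 (−0.159), CDKN1A (0.077) and GAPDH (−0.059). Leaving out 1 library changed it for MYC (−0.048 to 0.004), HLA-DOB (−0.123 to 0.043) and CDKN1A (−0.046 to 0.061). Same-numbered libraries did not deviate together (r of −0.045, −0.066 and 0.011), and with the replicate block 6727 genes were called, 2750 higher and 3977 lower. The length trend removed with replicate block was chosen after the data were seen. For the counts in gene lists, 31 of 1058 moved by over 1.5 times. Depth is unknown, so no limit for low genes can be given.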
